A study of Homo sapiens with 40 samples.

Results

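The Hippo pathway is a kinase cascade that limits organ growth and responds to cell contact, cell shape and tension. Its kinases, among them LATS2, phosphorylate the transcriptional cofactors YAP (gene YAP1) and TAZ (gene WWTR1) and hold them in the cytoplasm. Unphosphorylated YAP and TAZ enter the nucleus, bind the TEAD transcription factors and switch on genes such as CYR61, CTGF and ANKRD1, as well as inhibitors that act back on the pathway. In lung cancer, high YAP and TAZ activity has been linked to invasion and to tolerance of targeted drugs. Messenger RNA shows the level of these genes, not where the YAP and TAZ proteins are in the cell.

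The 9 genes described here are WWTR1, YAP1 and TEAD1 (the cofactors and a TEAD factor), CYR61, CTGF and ANKRD1 (targets), and AMOTL2, LATS2 and AJUBA (targets that also act on the pathway). They were taken by gene symbol from the authors' deposited table, in which 19280 genes have values in at least 1 cell line. All 9 genes were listed in 9 lines and 7 in LK2, which lacks CTGF and ANKRD1, giving 88 entries. The study treated 10 lines of human non-small cell lung cancer with GSK3368712 or with the vehicle DMSO, and GSK3368712 blocks type I arginine methyltransferases (PRMT1 and its relatives, which put asymmetric dimethyl marks on arginine). RNA was sequenced from 40 libraries, with 2 per arm of each line. Row labels place NCIH1563, NCIH1975, NCIH522 and PC9 in lung adenocarcinoma (LUAD) and EBC1, LK2, NCIH226, NCIH520, SKMES1 and SW900 in lung squamous cell carcinoma (LUSC). The groups compared are thus cells of a line given GSK3368712 and cells of the same line given DMSO. Each line is a single culture model with no immune or stromal cells. Neither the dose nor the time of treatment is spelled out in the labels. The titles of all 40 libraries end in the same tag, and the row labels of all 10 lines carry the same number. The 2 libraries of an arm are not said to be separate cultures, so p-values within a line cover only the spread between libraries, which may be technical.

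Only the authors' comparisons could be used, not values per library. For each line these comparisons give a log2 fold change with its standard error, an adjusted p from DESeq2 and a mean normalized count. Fold changes are read as GSK3368712 over DMSO because the row labels name the compound before the vehicle, and the values could not check this. A gene is called in a line where the authors' adjusted p is at most 0.05. A level here is the mean normalized count of a gene over the 4 libraries of a line, per 1000000 of the sum over all genes listed for that line, written CPM. Levels of an arm were worked out from that mean and the fold change, assuming that the mean is the average of the arms and that the fold change has the direction above. Each line was normalized separately and no spread is known for a level, so neighbours in an order of lines cannot be said to differ. Gene positions below are those of GENCODE 29 on GRCh38. In bulk RNA, fewer cells of a type and less RNA per cell cannot be told apart.

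Between 12721 and 14565 genes were listed per line. KRT8, KRT18 and KRT19, keratins of simple epithelia, were listed in all 10 lines, while the leukocyte markers PTPRC and CD3E were listed in none. The subtype labels were not matched by their markers in many lines. TP63, a squamous transcription factor, was listed in 2 LUAD and 2 LUSC lines, and KRT14 and DSG3, squamous structural genes, in none. NKX2-1, a glandular lung factor, was listed in 1 LUAD and 3 LUSC lines, and FOXA2, another adenocarcinoma marker, in 1 LUAD and 5 LUSC lines. The squamous markers SOX2 (1 LUAD and 4 LUSC lines) and KRT5 (1 LUAD and 2 LUSC lines) leaned with the labels. KRT7, an adenocarcinoma marker, was listed in all 10 lines. A listing shows only that a gene passed the authors' expression cutoff. LUAD and LUSC below are therefore the names in the row labels only.

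The DNA just before each start site is among the places where TEAD could bind, and sites further away were not searched. RefSeq windows of 250 bases upstream of the start (GRCh38.p14) were matched for 7 of the 9 genes, and the TEAD core motif GGAATG was searched on both strands. No window was matched for CYR61, which was called higher in NCIH1563 and NCIH1975, or for TEAD1. At least 1 match was found in the windows of 5 genes, CTGF, ANKRD1, AMOTL2, AJUBA and YAP1. Of 35116 such windows, 11.9% hold at least 1 match, 0.940% at least 2 and 0.0826% at least 3. Counted by gene, as for the 7, 14.3% of 27305 genes have a match in at least 1 of their windows. The windows below are those of the 4 target genes with a match, all called higher in NCIH1563 and NCIH1975, followed by a window of WWTR1, which was called lower in both lines. This choice of windows does not show that a match goes with a rise, which was not tested. Capitals mark GGAATG or its reverse complement CATTCC.
CTGF, chr6:131951373-131951622, minus strand: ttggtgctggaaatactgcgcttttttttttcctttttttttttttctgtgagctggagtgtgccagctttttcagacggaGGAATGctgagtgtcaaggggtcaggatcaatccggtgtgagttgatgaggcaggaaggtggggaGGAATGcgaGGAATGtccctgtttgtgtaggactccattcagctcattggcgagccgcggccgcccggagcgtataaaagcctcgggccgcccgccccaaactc
ANKRD1, chr10:90921088-90921337, minus strand: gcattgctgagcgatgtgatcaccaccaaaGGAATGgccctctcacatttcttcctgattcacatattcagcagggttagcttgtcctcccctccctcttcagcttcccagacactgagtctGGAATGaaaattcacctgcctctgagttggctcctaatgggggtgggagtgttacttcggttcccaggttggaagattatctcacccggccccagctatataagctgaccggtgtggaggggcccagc
AMOTL2, second listed start, chr3:134374448-134374697, minus strand: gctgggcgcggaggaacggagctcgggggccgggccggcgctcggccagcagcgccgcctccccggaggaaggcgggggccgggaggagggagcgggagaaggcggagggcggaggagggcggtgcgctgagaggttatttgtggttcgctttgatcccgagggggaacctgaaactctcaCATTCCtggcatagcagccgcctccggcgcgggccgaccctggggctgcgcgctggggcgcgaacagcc
AJUBA, second listed start, chr14:22976843-22977092, minus strand: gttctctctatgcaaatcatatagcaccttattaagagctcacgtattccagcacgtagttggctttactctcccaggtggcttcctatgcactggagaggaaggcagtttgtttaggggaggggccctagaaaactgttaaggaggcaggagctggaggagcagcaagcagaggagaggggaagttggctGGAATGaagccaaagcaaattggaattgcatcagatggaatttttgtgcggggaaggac
WWTR1, second listed start, chr3:149658026-149658275, minus strand: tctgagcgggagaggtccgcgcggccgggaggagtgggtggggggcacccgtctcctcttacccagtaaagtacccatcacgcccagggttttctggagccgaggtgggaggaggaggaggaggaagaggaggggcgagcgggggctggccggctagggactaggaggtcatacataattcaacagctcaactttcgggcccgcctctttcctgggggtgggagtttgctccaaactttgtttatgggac
The CTGF window holds 3 matches, which begin at −169, −104 and −95 counted from the start, and the ANKRD1 window holds 2, at −220 and −128. AMOTL2 has its match at −69 and AJUBA at −59 from the second listed start, and neither has a match before the first. YAP1, whose window is not printed and which was called lower in NCIH1563, has 1 match at −162. Neither WWTR1 window nor the LATS2 window holds these letters. ANKRD1 also has a match at −195 to TGANTCA, the loose pattern searched for AP-1, in which N is any base. The letters there are tgattca, and 6.57% of windows hold the pattern on either strand. The third motif searched, the CArG box of SRF, is in 1.16% of windows and in none of these. A match is a run of letters, not a measured binding site.

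The first comparison asked which of the 9 genes changed with GSK3368712 in each line. In NCIH1563 the targets CYR61, CTGF, ANKRD1, AMOTL2 and AJUBA rose while the cofactor genes YAP1 and WWTR1 and the factor TEAD1 fell. In NCIH1975 the same 5 targets rose, TEAD1 rose as well, and WWTR1 fell. LATS2, also a target, was called in neither line, at −0.56 in NCIH1563 (DESeq2 adjusted p = 0.053) and 0.85 in NCIH1975 (0.376). In EBC1 ANKRD1, AMOTL2, LATS2 and AJUBA rose, whereas CYR61, CTGF and WWTR1 fell. No gene of the 9 was called in NCIH522 or PC9. WWTR1 was called lower in 5 lines and higher in none, and AMOTL2 higher in 5 lines and lower in none.

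By the authors' DESeq2 adjusted p, 8 of 9 genes were called in NCIH1563, where 48.1% of all listed genes were called, and 7 of 9 in NCIH1975, where 7.91% were. EBC1 had 7 of 9 called against 46.5% of all genes. SKMES1 had 5 of 9 against 31.4%, NCIH226 4 of 9 against 31.3%, NCIH520 4 of 9 against 23.8% and SW900 3 of 9 against 35.7%. LK2 had 1 of 7 against 39.4%. NCIH522 had 0 of 9 against 1.66% and PC9 0 of 9 against 4.48%. By direction, all genes were called higher and lower in 23.3% and 24.8% of cases in NCIH1563, 4.33% and 3.58% in NCIH1975, and 23% and 23.4% in EBC1. In all, 25 of the 88 entries were called higher and 14 lower, where 13.7% of the entries of all genes were called higher and 13.8% lower, 27.5% in either direction. The share of the 9 genes called was far above that of all genes in NCIH1975. It was higher than that of all genes in NCIH1563, EBC1, SKMES1, NCIH226 and NCIH520, near it in SW900 and lower in LK2. With so few genes, 1 call more or less moves these shares by much, and the differences were not tested. The 9 genes were also chosen with earlier results of these data known, so an excess over all genes cannot be told apart from that choice. In NCIH522 and PC9 so few of all genes were called that 0 of 9 cannot be told from the background. The median log2 fold change of the 9 genes was 1.06 in NCIH1563 and 0.85 in NCIH1975, beside medians over all listed genes of −0.013 and 0.042. In EBC1, where 4 of the 9 genes were called higher and 3 lower, it was 0.008, beside 0.002. The median standard error of the listed 9 genes was 0.34 in NCIH1975, 0.32 in PC9 and 0.30 in NCIH522, against 0.066 to 0.16 in the LUSC lines, so counts of calls do not rank the lines by size of response. At an adjusted p of at most 0.01, the calls in NCIH1975 were 3 of 9 (CYR61, ANKRD1 and WWTR1), where 4.36% of all genes were called.

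**Figure D1:**
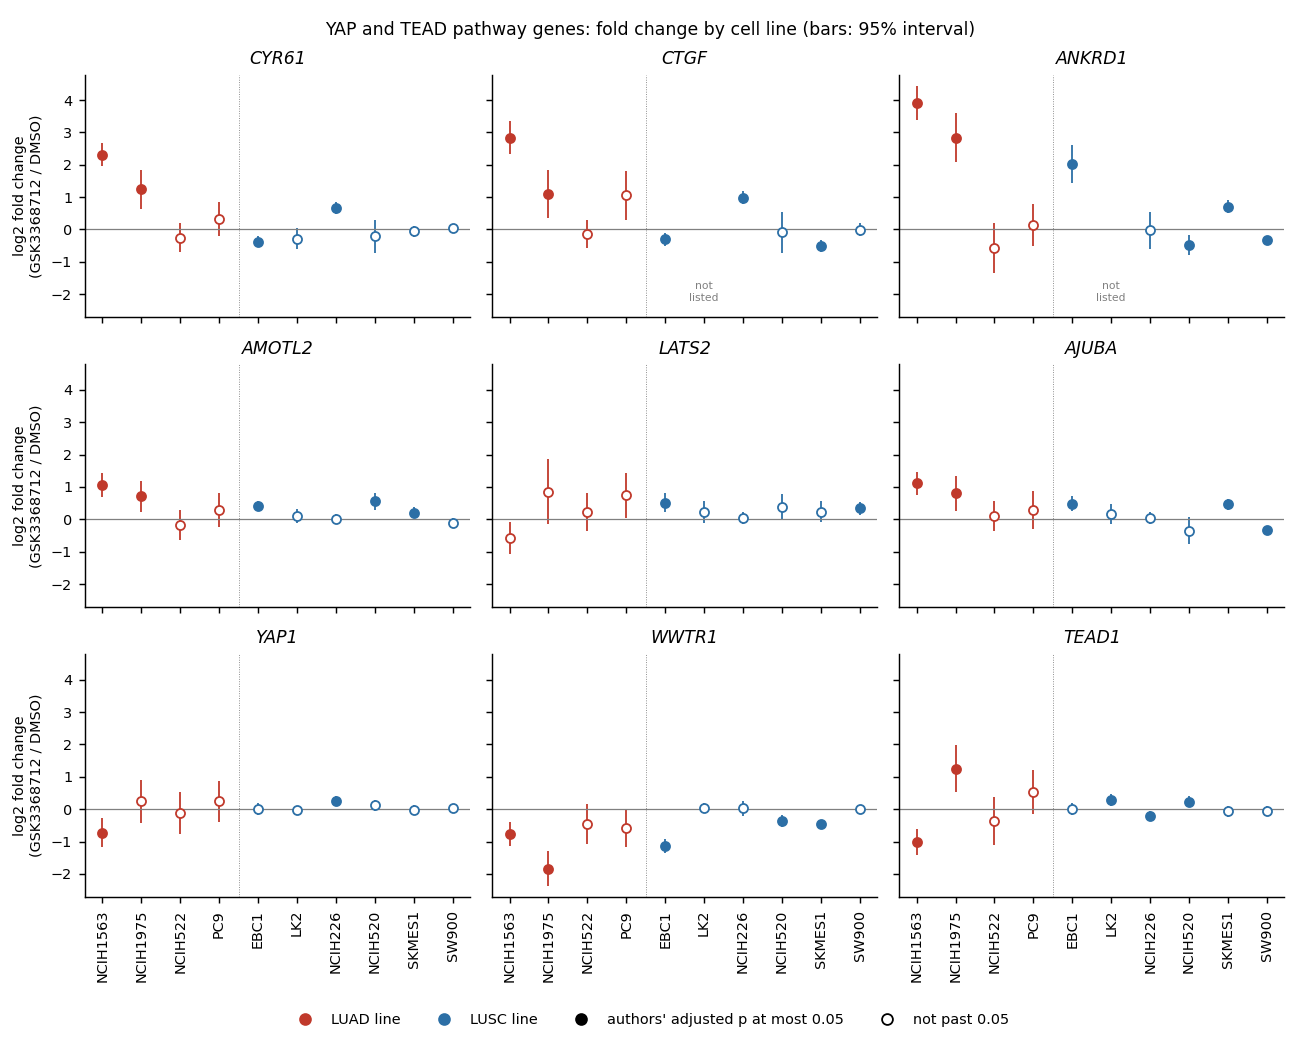
Log2 fold change (GSK3368712 over DMSO, vertical axis) of each of the 9 genes in each cell line (horizontal axis), from the authors' deposited table. Bars are 95% intervals from the deposited standard errors, red is LUAD, blue is LUSC, and filled points have an authors' adjusted p of at most 0.05. ANKRD1 reaches 3.91 in NCIH1563, WWTR1 reaches −1.84 in NCIH1975, and YAP1 lies between −0.72 and 0.25.

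WWTR1 (ENSG00000018408, chromosome 3, 149517235 to 149736714, minus strand) encodes TAZ, the close relative of YAP. Its level was highest in EBC1 at 340.0 CPM, followed by SKMES1 at 182, SW900 at 157, NCIH1563 at 109, NCIH520 at 65.4, LK2 at 47.0, NCIH1975 at 38.1, NCIH226 at 34.0, PC9 at 21.9 and NCIH522 at 7.50. In EBC1 the level was worked out as 212 CPM with GSK3368712 and 468 with DMSO. The same step gave 16.6 with GSK3368712 and 59.5 with DMSO in NCIH1975, and 153 with GSK3368712 and 212 with DMSO in SKMES1. WWTR1 thus fell both in the line with the highest level and in lines with much less of it. Its log2 fold changes in the authors' deposited table were −0.78 in NCIH1563, −1.84 in NCIH1975, −0.47 in NCIH522 and −0.59 in PC9 among LUAD lines. Among LUSC lines the authors' deposited table gives −1.14 in EBC1, 0.031 in LK2, 0.023 in NCIH226, −0.36 in NCIH520, −0.46 in SKMES1 and −0.003 in SW900. All 4 LUAD lines lay below 0, 3 of the 6 LUSC lines were called lower, and the other 3 lay within their standard errors of 0. The authors called NCIH1975 (DESeq2 adjusted p = 7.2e-09), EBC1 (1.86e-23), SKMES1 (4.05e-09), NCIH1563 (0.000187) and NCIH520 (0.000738). WWTR1-AS1, an antisense transcript over WWTR1, was listed at −0.68 in EBC1 and −1.33 in NCIH1563 in the authors' deposited table, at 1.21 and 0.893 CPM, far below WWTR1 itself.

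YAP1 (ENSG00000137693, chromosome 11, 102110461 to 102233423, plus strand), the main cofactor of the pathway, was the steadiest of the 9 genes. It stood at 217 CPM in SW900, 125 in EBC1, 123 in NCIH226, 119 in SKMES1, 109 in LK2, 63.9 in NCIH520, 60.2 in NCIH522, 43.4 in NCIH1563, 27.6 in PC9 and 21.2 in NCIH1975. The 5 highest levels were those of LUSC lines, and NCIH520 and NCIH522, next in order, were close. The log2 fold changes in the authors' deposited table were −0.72 in NCIH1563, 0.25 in NCIH1975, −0.12 in NCIH522 and 0.24 in PC9, and from −0.036 in LK2 to 0.25 in NCIH226 among the LUSC lines. YAP1 was called lower in NCIH1563 (DESeq2 adjusted p = 0.00507) and higher in NCIH226 (adjusted p = 0.0124), and the other 8 lines were not called. The worked-out level was 32.8 CPM with GSK3368712 and 54.1 with DMSO in NCIH1563, and 134 with GSK3368712 and 112 with DMSO in NCIH226.

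TEAD1 (ENSG00000187079, chromosome 11, 12674591 to 12944483, plus strand), a DNA-binding partner of YAP and TAZ, moved in opposite directions in different lines. Its level ran from 327 CPM in NCIH226 through 209 in SW900, 142 in SKMES1, 132 in EBC1, 113 in NCIH1563, 84.7 in LK2, 62.3 in NCIH520, 26.1 in NCIH522 and 15.1 in PC9 to 11.4 in NCIH1975. In the authors' deposited table its log2 fold change was −1.01 ± 0.21 (SE) in NCIH1563 (DESeq2 adjusted p = 8.05e-06) and 1.25 ± 0.38 in NCIH1975 (adjusted p = 0.017). The 2 intervals do not meet, as the upper 95% bound was −0.61 in NCIH1563 and the lower bound 0.52 in NCIH1975. Worked-out levels were 74.9 CPM with GSK3368712 and 151 with DMSO in NCIH1563, and 16.1 with GSK3368712 and 6.75 with DMSO in NCIH1975. Smaller calls in the authors' deposited table were 0.27 in LK2, 0.23 in NCIH520 and −0.22 in NCIH226. The uncalled values were −0.37 in NCIH522, 0.53 in PC9, 0.008 in EBC1, −0.065 in SKMES1 and −0.048 in SW900 in the authors' deposited table.

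In NCIH1563 the fold changes of all genes were related to gene properties. Over 13288 annotated genes, their correlation was −0.16 with log transcript length, −0.18 with log gene span and 0.30 with GC content, which together fitted 12.5% of the variance. WWTR1, YAP1 and TEAD1 span 219480, 122963 and 269893 bases, against 3198 for CTGF and 9181 for ANKRD1. With the line's fold changes corrected for these properties, an alternative chosen after seeing the data, the NCIH1563 values were −0.34 for WWTR1, −0.39 for YAP1 and −0.43 for TEAD1, less than in the deposited values. The deposited standard errors there are 0.19 for WWTR1, 0.23 for YAP1 and 0.21 for TEAD1, so the corrected falls are uncertain. The corrected values of CYR61, CTGF and ANKRD1 in NCIH1563 were 2.27, 2.77 and 3.93. In NCIH1975 the properties fitted 4.52% of the variance, and the corrected WWTR1 value was −2.03.

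CYR61 (ENSG00000142871, chromosome 1, 85580761 to 85583962, plus strand) encodes a matricellular protein that binds integrins and is a classical YAP target. It was highest in NCIH226 at 516 CPM, then 296 in NCIH522, 283 in SW900, 232 in SKMES1, 161 in NCIH1975, 160.3 in PC9, 98.5 in EBC1 and 69.6 in NCIH1563, and lowest at 6.32 in LK2 and 3.30 in NCIH520. The authors' deposited table gives log2 fold changes of 2.32 in NCIH1563, 1.24 in NCIH1975, −0.26 in NCIH522 and 0.33 in PC9. For the LUSC lines, the authors' deposited table gives −0.38 in EBC1, −0.28 in LK2, 0.66 in NCIH226, −0.21 in NCIH520, −0.055 in SKMES1 and 0.033 in SW900. CYR61 rose in NCIH1563 (DESeq2 adjusted p = 4.06e-34), NCIH1975 (0.00168) and NCIH226 (9.55e-12) and fell in EBC1 (3.01e-05). The worked-out level was 116 CPM with GSK3368712 and 23.3 with DMSO in NCIH1563, and 632 with GSK3368712 and 401 with DMSO in NCIH226, so CYR61 rose in the line with the most of it and in a line with much less.

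CTGF (ENSG00000118523, chromosome 6, 131948176 to 131951373, minus strand), a matricellular relative of CYR61 that acts on fibrosis and adhesion, is the YAP target whose window above holds 3 TEAD motifs. It was at 95.6 CPM in NCIH522, 91.6 in SKMES1, 79.2 in NCIH226, 50.9 in EBC1, 39.3 in SW900, 24.5 in NCIH1975, 22.03 in PC9, 8.32 in NCIH1563 and 2.40 in NCIH520. Its log2 fold changes in the authors' deposited table were 2.84 in NCIH1563, 1.10 in NCIH1975, −0.13 in NCIH522 and 1.06 in PC9. In the LUSC lines, the authors' deposited table lists −0.31 in EBC1, 0.98 in NCIH226, −0.088 in NCIH520, −0.51 in SKMES1 and −0.010 in SW900. CTGF rose in NCIH1563 (DESeq2 adjusted p = 2.5e-26), NCIH226 (8.47e-21) and NCIH1975 (0.0476), and fell in SKMES1 (2.46e-07) and EBC1 (0.00794). PC9 was about as high as NCIH1975 but was not called (adjusted p = 0.0892). The worked-out level in NCIH1563 was 14.6 CPM with GSK3368712 and 2.04 with DMSO, and in NCIH226 it was 105 with GSK3368712 and 53.3 with DMSO.

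ANKRD1 (ENSG00000148677, chromosome 10, 90912096 to 90921276, minus strand), an ankyrin-repeat protein best known from stressed heart muscle and a YAP target, gave the largest fold changes of the 9 genes. It was at 270.1 CPM in SW900 and 64.7 in SKMES1, and at 17.2 in NCIH1975, 12.0 in NCIH1563, 10.1 in NCIH520, 5.06 in NCIH522, 5.03 in PC9, 3.63 in NCIH226 and 3.21 in EBC1. The authors' deposited table gives log2 fold changes of 3.91 ± 0.27 (SE) in NCIH1563, 2.84 ± 0.39 in NCIH1975, −0.59 ± 0.40 in NCIH522 and 0.13 ± 0.33 in PC9. For LUSC lines, the authors' deposited table gives 2.03 ± 0.30 in EBC1, −0.023 ± 0.30 in NCIH226, −0.49 ± 0.16 in NCIH520, 0.71 ± 0.11 in SKMES1 and −0.33 ± 0.060 in SW900. ANKRD1 rose in NCIH1563 (DESeq2 adjusted p = 1.99e-43), NCIH1975 (1.63e-10), EBC1 (2.34e-10) and SKMES1 (5.13e-10), and fell in SW900 (7.48e-07) and NCIH520 (0.0146). Worked-out levels were 22.5 CPM with GSK3368712 and 1.498 with DMSO in NCIH1563, 30.1 with GSK3368712 and 4.21 with DMSO in NCIH1975, and 5.16 with GSK3368712 and 1.27 with DMSO in EBC1. In SW900, the line with the most ANKRD1, the worked-out level was 239.6 CPM with GSK3368712 and 301 with DMSO.

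**Figure D2:**
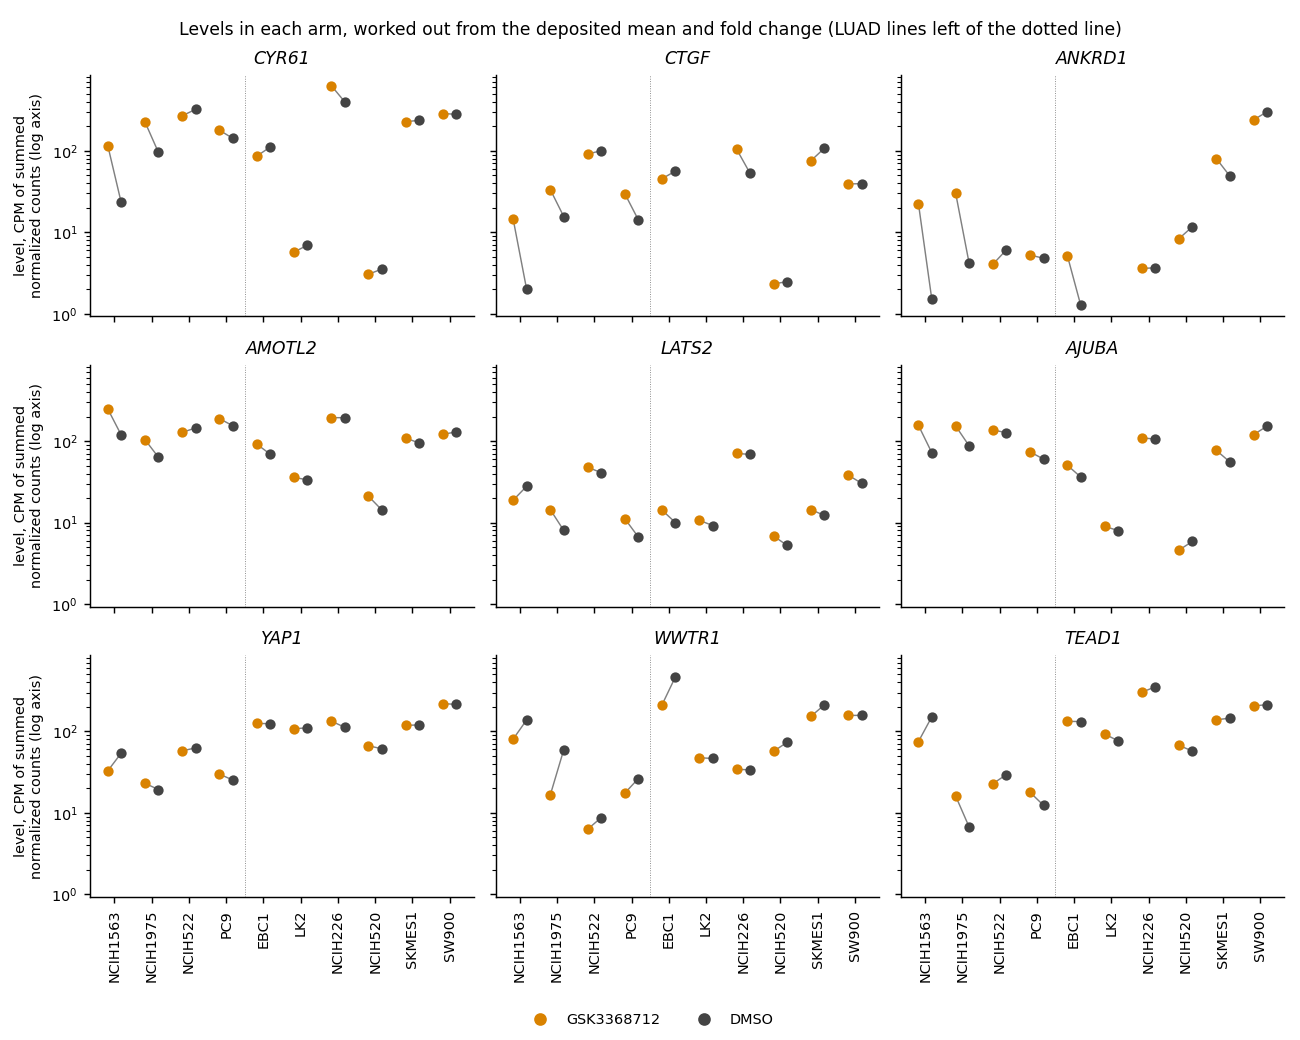
Levels of the 9 genes in CPM of the summed normalized counts (vertical, log axis) with GSK3368712 (orange) and DMSO (dark) in each cell line (horizontal). Each point was worked out from the deposited mean and fold change, so it has no error bar. ANKRD1 stands at 22.5 with GSK3368712 and 1.498 with DMSO in NCIH1563, and WWTR1 at 212 with GSK3368712 and 468 with DMSO in EBC1.

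AMOTL2, AJUBA and LATS2 are YAP targets whose products act on the pathway. AMOTL2 (ENSG00000114019, chromosome 3, 134355874 to 134375479, minus strand), an angiomotin-family scaffold that binds and restrains YAP, ranged from 194 CPM in NCIH226 to 17.7 in NCIH520, with a median of 114 over the lines. In the authors' deposited table its log2 fold changes were 1.06 in NCIH1563, 0.72 in NCIH1975, −0.18 in NCIH522, 0.29 in PC9, 0.41 in EBC1, 0.099 in LK2, −0.001 in NCIH226, 0.56 in NCIH520, 0.21 in SKMES1 and −0.10 in SW900. It rose in NCIH1563 (DESeq2 adjusted p = 2.78e-07), EBC1 (7.35e-06), NCIH520 (0.000408), NCIH1975 (0.0415) and SKMES1 (0.0443). Its worked-out level was 248 CPM with GSK3368712 and 119 with DMSO in NCIH1563.

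AJUBA (ENSG00000129474, chromosome 14, 22971174 to 22982642, minus strand), a LIM-domain protein that binds and inhibits LATS kinases at cell junctions, ranged from 136 CPM in SW900 to 5.24 in NCIH520, with a median of 87.3. The authors' deposited table gives log2 fold changes of 1.12 in NCIH1563, 0.81 in NCIH1975, 0.11 in NCIH522, 0.29 in PC9, 0.48 in EBC1, 0.17 in LK2, 0.051 in NCIH226, −0.36 in NCIH520, 0.47 in SKMES1 and −0.34 in SW900. AJUBA rose in NCIH1563 (DESeq2 adjusted p = 1.17e-08), SKMES1 (6.85e-07), EBC1 (0.000279) and NCIH1975 (0.0426) and fell in SW900 (2.53e-06). These are 5 of the 6 lines in which ANKRD1 was called, with the same direction in each. A transcript on the same strand over AJUBA (ENSG00000259132) was listed in 3 lines, at 1.27 to 1.87 CPM, and its reads may be shared with AJUBA.

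LATS2 (ENSG00000150457, chromosome 13, 20973032 to 21061547, minus strand), a kinase that phosphorylates YAP and TAZ, ranged from 69.6 CPM in NCIH226 to 6.03 in NCIH520, with a median of 12.7. Its log2 fold changes in the authors' deposited table were −0.56 in NCIH1563, 0.85 in NCIH1975, 0.22 in NCIH522, 0.74 in PC9, 0.51 in EBC1, 0.21 in LK2, 0.044 in NCIH226, 0.38 in NCIH520, 0.24 in SKMES1 and 0.34 in SW900. It lay above 0 in 9 of 10 lines, but was called in only EBC1 (DESeq2 adjusted p = 0.00255) and SW900 (adjusted p = 0.00584). NCIH1563 was the exception in direction, with an adjusted p of 0.053 in DESeq2.

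The second comparison asked which of the genes moved in a common direction across the lines, each line giving 1 value. WWTR1 fell by 0.56 ± 0.58 on the log2 scale (SD, n = 10), negative in 8 of 10 lines (limma adjusted p = 0.0234). Among the 7 genes tested in all 10 lines it was the only gene past 0.05, where 21.6% of the 9339 genes tested were called, 9.50% higher and 12.1% lower. AMOTL2 averaged 0.31 ± 0.39 (limma adjusted p = 0.0691), LATS2 0.30 ± 0.39 (0.0776) and AJUBA 0.28 ± 0.46 (0.146), none past the threshold. CYR61 averaged 0.34 ± 0.86 (limma adjusted p = 0.313), TEAD1 0.058 ± 0.59 (0.843) and YAP1 0.0007 ± 0.29 (0.996). CTGF and ANKRD1 came from a fit over the 12111 genes listed in at least 7 lines, of which 20.2% were called. There CTGF averaged 0.55 ± 1.06 (SD, n = 9; limma adjusted p = 0.223) and ANKRD1 0.91 ± 1.63 (n = 9; adjusted p = 0.184). The median over all genes tested was 0.0043, and 3 of the 7 genes had an unadjusted p under 0.05, as did 34.6% of all genes tested. Without NCIH1563 the mean of CYR61 was 0.12, that of CTGF 0.26, that of ANKRD1 0.54 and that of AJUBA 0.19, again none past the threshold.

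The WWTR1 call depended on which lines entered and on the test. Without EBC1 its mean was −0.49 (limma adjusted p = 0.0568), without NCIH1975, NCIH522 and PC9 together it was −0.39 (adjusted p = 0.0960), and with an unmoderated test per gene the adjusted p was 0.065.

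The third comparison asked whether the response of a gene differed between lines beyond the deposited standard errors. All 7 genes tested in 10 lines passed Cochran's Q, and 65.9% of all genes did so. Q was 246 for CYR61, 148 for WWTR1, 117 for AJUBA, 65.5 for AMOTL2, 61.7 for TEAD1, 21.9 for LATS2 and 21.0 for YAP1, on 9 degrees of freedom. CTGF and ANKRD1, listed in 9 lines, had Q of 270 and 385 on 8 degrees of freedom, with 66.2% of the genes in at least 7 lines called. Among the 7 genes tested in 10 lines the adjusted p ran from 1.93e-45 for CYR61 to 0.0213 for YAP1, and it was 2.01e-51 for CTGF and 1.73e-75 for ANKRD1. With standard errors widened 1.72 times, the factor that brings the median Q over all genes to its expected value, CYR61 (adjusted p = 8.73e-12), WWTR1 (5.70e-06) and AJUBA (0.000277) still passed, while AMOTL2 (0.0781), TEAD1 (0.109), LATS2 and YAP1 did not. Without NCIH1563, the Q of LATS2 (adjusted p = 0.246) and of YAP1 (0.365) no longer passed, and without NCIH226 that of YAP1 (0.125) did not.

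The fourth comparison set the LUAD lines against the LUSC lines. CYR61 averaged 0.91 ± 1.12 in LUAD lines (SD, n = 4) and −0.039 ± 0.37 in LUSC lines (n = 6), a difference of 0.95 with a limma adjusted p of 0.885, and of 0.48 without NCIH1563 (adjusted p = 0.419). CTGF averaged 1.22 ± 1.22 in LUAD lines (n = 4) and 0.013 ± 0.57 in the 5 LUSC lines that list it (limma adjusted p = 0.746 in the fit over genes in at least 7 lines, of which 0.0167% passed). WWTR1 averaged −0.92 ± 0.63 in LUAD lines and −0.32 ± 0.46 in LUSC lines (limma adjusted p = 0.943). AJUBA averaged 0.58 ± 0.46 in LUAD lines and 0.078 ± 0.37 in LUSC lines (limma adjusted p = 0.937). AMOTL2 averaged 0.47 ± 0.54 in LUAD lines and 0.20 ± 0.25 in LUSC lines, LATS2 0.31 ± 0.64 in LUAD lines and 0.29 ± 0.16 in LUSC lines, YAP1 −0.088 ± 0.46 in LUAD lines and 0.060 ± 0.11 in LUSC lines, and TEAD1 0.10 ± 1.00 in LUAD lines and 0.030 ± 0.19 in LUSC lines, each with a limma adjusted p of 0.999. ANKRD1 averaged 1.57 ± 2.15 in LUAD lines (n = 4) and 0.38 ± 1.03 in the 5 LUSC lines that list it (limma adjusted p = 0.926 in the fit over genes in at least 7 lines). By limma, 0 of the 7 genes tested passed, and 0.0107% of all genes did. An unadjusted p under 0.05 was found for 1 of the 7 (CYR61) and for 5.47% of all genes. An unmoderated test per gene also called 0 of the 7. The values of LUAD and LUSC lines overlapped for each of the 9 genes, with ANKRD1 between −0.59 and 3.91 in LUAD lines and between −0.49 and 2.03 in LUSC lines. Within LUAD, NCIH1563 and NCIH1975 held the called rises and NCIH522 and PC9 had no calls. In PC9, though, CTGF stood at 1.06 and LATS2 at 0.74, close to 1.10 and 0.85 in NCIH1975. Smaller in PC9 than in NCIH1975 were CYR61 (0.33 against 1.24), ANKRD1 (0.13 against 2.84), AMOTL2 (0.29 against 0.72) and AJUBA (0.29 against 0.81).

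The genes also differed in which lines they moved in, as the fold changes of gene pairs over the lines show. These are descriptions over 9 or 10 lines, and both values of a point come from the same 4 libraries. Of the 36 pairs, CYR61 and CTGF had the highest Pearson r at 0.95 (Spearman rho 0.88, n = 9), and 0.86 without NCIH1563. ANKRD1 and AJUBA had an r of 0.91 (rho 0.90, n = 9), and 0.85 without NCIH1563. CYR61 and ANKRD1, both classical targets, had an r of 0.76 (rho 0.53, n = 9), and 0.47 without NCIH1563. In EBC1 these pairs moved apart, with ANKRD1 and AJUBA called higher and CYR61 and CTGF called lower. In SKMES1 ANKRD1 and AJUBA were called higher and CTGF lower, with CYR61 not called. In SW900 ANKRD1 and AJUBA were called lower and neither CYR61 nor CTGF was called, while NCIH226 had CYR61 and CTGF called higher and neither ANKRD1 nor AJUBA called.

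WWTR1 ran against ANKRD1, with an r of −0.72 (rho −0.68, n = 9), and −0.90 (rho −0.62, n = 8) without NCIH1563. LATS2 and TEAD1 had an r of 0.90 (rho 0.78, n = 10), and 0.84 without NCIH1563. For YAP1 and CYR61 the sign depended on NCIH1563, as r was −0.50 (rho 0.32) with it and 0.81 (rho 0.82) without it. In that line the fold change of CYR61 was highest and that of YAP1 lowest. The rank relation over lines of a gene's level with its fold change had a rho between −0.60 for CTGF (n = 9) and 0.22 for CYR61 (n = 10).

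**Figure D3:**
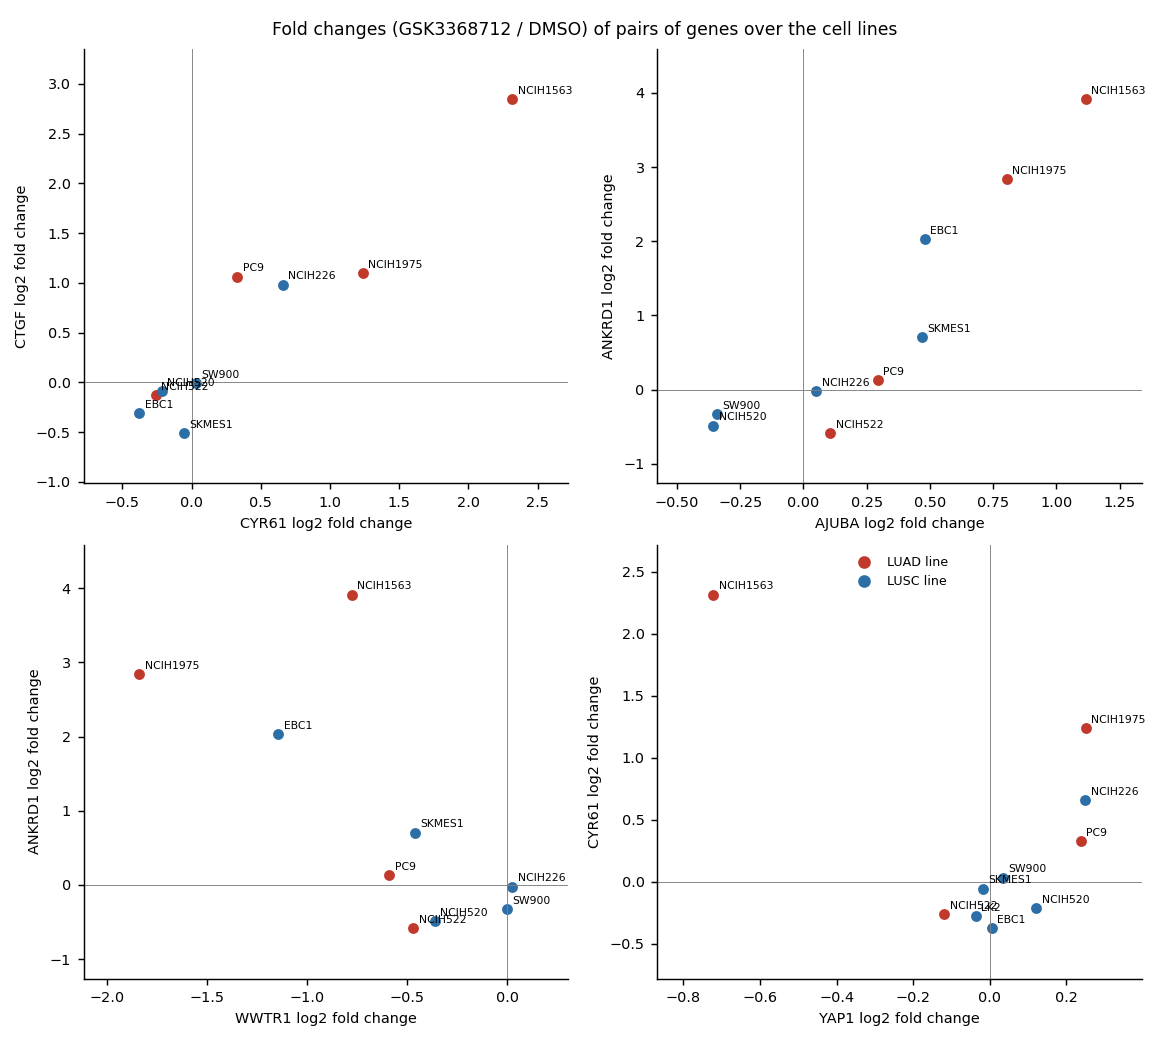
Log2 fold changes (GSK3368712 over DMSO) of 4 pairs of genes, 1 point per cell line, red for LUAD and blue for LUSC. CYR61 and CTGF run together (r = 0.95, n = 9), as do AJUBA and ANKRD1 (r = 0.91, n = 9), WWTR1 and ANKRD1 run opposite (r = −0.72, n = 9), and NCIH1563 stands apart in the plot of YAP1 and CYR61.

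Among genes listed in all 10 lines, those with fold changes most like CYR61 included P3H1, a collagen prolyl hydroxylase (r = 0.97), and MITD1, a protein of late cell division (0.95). For CTGF they were UBE2V2, a ubiquitin-conjugating enzyme variant (r = 0.96, n = 9), CYR61 itself (0.95) and NDST1, a heparan sulfate sulfotransferase (0.95). For YAP1 they were DDX46, an RNA helicase of splicing, PPP2R3A, a phosphatase subunit, and YME1L1, a mitochondrial protease (each r = 0.97, n = 10). Each value is the best of 9338 or 9339 compared over few lines and describes these lines only. Without NCIH1563 the r of these genes lay between 0.83 and 0.94.

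The other genes of the pathway were described from lists. Of 27 kinases and adaptors upstream of YAP and TAZ, 17 were tested in all 10 lines, and 4 rose and 1 fell by limma, where 9.50% of all genes rose and 12.1% fell, with a list median of 0.045 beside 0.0043 over all genes. Of the 24 listed in at least 7 lines, 5 rose and 1 fell in the fit over such genes. SAV1, the scaffold of the MST kinases, rose by 0.49 ± 0.29, above 0 in 9 of 10 lines (SD, n = 10; limma adjusted p = 0.00214). The authors' deposited table gives SAV1 as 0.86 in NCIH226, 0.59 in SW900, 0.59 in NCIH1563, 0.46 in SKMES1 and 0.38 in LK2, all called, and −0.040 in EBC1. DLG5, a scaffold of cell polarity, rose by 0.29 ± 0.21 (limma adjusted p = 0.0145), and BTRC, a ubiquitin ligase subunit that targets phosphorylated YAP for destruction, rose by 0.22 ± 0.18, above 0 in 10 of 10 lines (adjusted p = 0.0368). MOB1A, the coactivator of LATS kinases, fell by 0.27 ± 0.26, below 0 in 9 of 10 lines (limma adjusted p = 0.0368). The fifth call, TAOK2, a TAO-family kinase, averaged 0.17 ± 0.077 (limma adjusted p = 0.0421) and is named because it completes the count. Per line, 14 of the 25 listed were called in NCIH1563, 5 higher and 9 lower, and 1 of 23 in NCIH1975, beside 48.1% and 7.91% of all genes.

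Of 7 TEAD and VGLL genes, 3 were tested in all 10 lines and TEAD3, another DNA-binding partner of YAP, rose by 0.30 ± 0.29 (SD, n = 10; limma adjusted p = 0.0301). TEAD4, the TEAD factor needed in early mouse embryos, averaged −0.15 ± 0.28 (limma adjusted p = 0.241) and VGLL4, a cofactor that competes with YAP for TEAD, 0.11 ± 0.35 (adjusted p = 0.488). The list median was 0.11.

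Of 17 other published YAP and TEAD targets, 8 were tested in all 10 lines and 0 were called by limma, with a median of 0.046. The values of smallest p were those of IGFBP3, a binding protein of insulin-like growth factors (0.62 ± 0.87, limma adjusted p = 0.0729), ARHGEF17, a guanine nucleotide exchange factor (0.26 ± 0.34, 0.0872), GADD45A, a stress-response gene (0.41 ± 0.64, 0.113), and PTPN14, a phosphatase that binds YAP, is itself a target and stands in the upstream list too (−0.26 ± 0.78, 0.418). IGFBP3 was called higher in NCIH1975 at 2.07, PC9 at 1.61, EBC1 at 1.57, NCIH1563 at 0.84, SW900 at 0.52 and NCIH226 at 0.34 in the authors' deposited table, and called lower at −0.31 in NCIH520 and −0.26 in SKMES1. PC9, in which none of the 9 genes was called, thus had a call here. In NCIH1563, 7 of these 17 targets were called higher and 7 lower, beside 48.1% of all genes called in either direction, so the list moved both ways in the line where the 5 targets above rose. In SKMES1 2 of 16 and in SW900 2 of 17 were called higher, with 7 lower in each, beside 31.4% and 35.7% of all genes called in either direction.

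AP-1 factors (dimers of FOS and JUN proteins) bind many enhancers together with TEAD. Of 9 AP-1 genes, 6 were tested in all 10 lines and 0 were called by limma, with a median of 0.24. JUNB averaged 0.61 ± 0.85 (SD, n = 10; limma adjusted p = 0.0698), ATF3 0.37 ± 0.59 (0.114), JUN 0.34 ± 0.87 (0.314) and JUND −0.080 ± 0.41 (0.684). In NCIH1563, 6 of the 8 listed were called higher and none lower, beside 23.3% of all genes called higher, with a list median of 1.51 beside −0.013 over all genes. There the authors' deposited table gives 2.51 for FOSL1, 2.28 for JUN, 2.24 for JUNB and 2.22 for BATF3. JUNB was also called higher in EBC1 at 2.08 and in SKMES1 at 0.71 in the authors' deposited table, and was not called in NCIH1975 at 0.18. Corrected for length and GC content, the NCIH1563 values were 2.03 for FOSL1, 2.08 for JUN and 1.61 for JUNB, and JUND, at 0.46 in the authors' deposited table, was −0.47.

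SRF with its cofactor MRTFA reads out actin assembly and shares targets with YAP. Of 20 actin and SRF genes, 15 were tested in all 10 lines and MRTFA rose by 0.30 ± 0.23, above 0 in 9 of 10 lines (SD, n = 10; limma adjusted p = 0.0151), with a list median of 0.049. ACTA2, an actin of smooth muscle listed in 7 lines, fell by 0.70 ± 0.43, below 0 in 7 of 7 (SD, n = 7; limma adjusted p = 0.0103 in the fit over genes in at least 7 lines). TPM1, a tropomyosin, averaged 0.51 ± 0.65 (limma adjusted p = 0.0514), TPM2 0.41 ± 0.52 (0.0567) and ACTG1, a cytoplasmic actin, 0.22 ± 0.40 (0.186). TPM1 was called higher in NCIH1563 at 1.56, NCIH1975 at 1.55 and NCIH226 at 0.92 in the authors' deposited table, the 3 lines in which CYR61 was called higher, and also in SKMES1 at 0.46 and SW900 at 0.22. In NCIH226 11 of the 20 listed were called higher and 2 lower, and in EBC1 11 of 19 higher and 4 lower, beside 31.3% and 46.5% of all genes called in either direction. In SW900 3 of 18 were called higher and 7 lower, and in NCIH520 2 of 16 higher and 4 lower, beside 35.7% and 23.8% of all genes.

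The messenger RNA of PRMT1, the main enzyme inhibited by the compound, was called in NCIH1563 at 0.52 in the authors' deposited table, and was 0.18 there after the correction for length and GC content. Across lines PRMT1 averaged 0.096 ± 0.23 (SD, n = 10; limma adjusted p = 0.416). Of 4 control genes, 3 were tested in all 10 lines and 1 was called. This was PRMT3, which fell by 0.41 ± 0.25, below 0 in 10 of 10 lines (limma adjusted p = 0.00364). CARM1 averaged 0.11 ± 0.35 (limma adjusted p = 0.502).

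**Figure D4:**
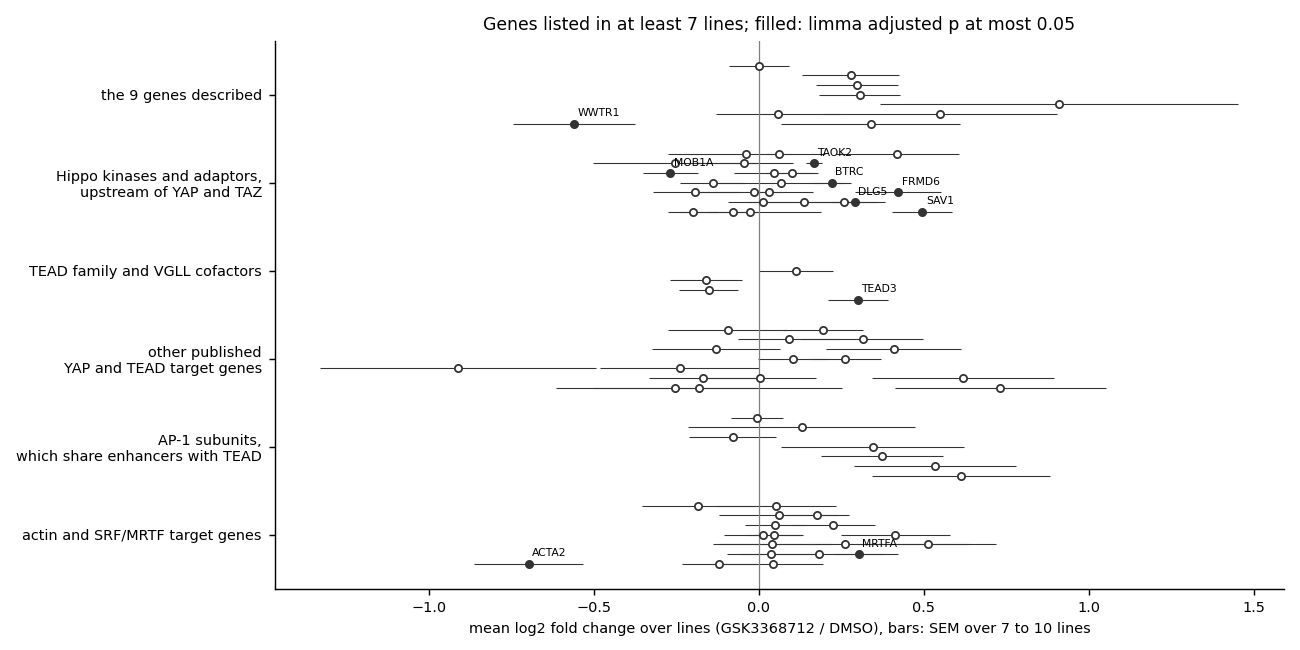
Mean log2 fold change over cell lines (GSK3368712 over DMSO, horizontal axis) of the 9 genes and of 5 lists of pathway genes listed in at least 7 lines (rows), with the standard error over 7 to 10 lines as bars. Filled points have a limma adjusted p of at most 0.05 in the fit over genes listed in at least 7 lines. WWTR1 is the only filled point of the 9 genes at −0.56, and SAV1 lies at 0.49 and TEAD3 at 0.30.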

How the data were processed

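RNA was isolated with a miRNeasy kit and sequenced from TruSeq Stranded mRNA libraries as paired reads of 151 bases, per the labels' protocols. FastQC, Salmon 0.12.0, DESeq2 (version not stated) and GRCh38 are named in the submitters' processing notes, and genes with an FPKM of at most 1 were removed from each comparison, per the labels. Strand handling in counting is not given in the sources used here.

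The authors' deposited table holds, for each line, a log2 fold change with a log2 standard error, a p-value adjusted within the line, a test statistic (a score per gene that the authors deposited) and a mean normalized count, which is a signal per gene averaged by the authors over 4 libraries. Library depth is unknown; summed over the listed genes, mean normalized counts came to between 57647556 and 108557964 in a line. No per-library values were analysed here.

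The 9 genes, the lists and the tests were chosen with earlier results of these data known. All 9 genes are named in every comparison. Of each list up to 4 genes with the smallest p across lines are named, and for CYR61, CTGF and YAP1 the 3 genes of most similar fold changes, less 1 that is not reported here. Lines served as replicates in limma 3.58.1 (R 4.3.3), with Benjamini-Hochberg adjustment over all genes tested. Cochran's Q used the deposited standard errors. On simulated data for 9339 genes, the test across lines recovered 80% of shifts of 0.5 and 95% of shifts of 1. The test of LUAD against LUSC recovered 69.5% of shifts of 1 and 98.5% of shifts of 2. These shares were not worked out for the 9 genes, whose SD over lines ran from 0.29 for YAP1 to 1.63 for ANKRD1. Transcript length, gene span and GC content came from GENCODE 29, which matched 99.8% of gene IDs, and promoter windows from RefSeq. Python 3.11.15 and matplotlib 3.10.9 drew the figures.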

Additional observations from a re-analysis of the deposited data

Results flagged for a closer look

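CTGF and YAP1 each had a line far from the others in the authors' deposited table. CTGF in NCIH1563 stood at a log2 fold change of 2.842, with a gap to the next of the 9 lines above the 95% limit of Dixon's test (0.52 of the whole range against a limit of 0.493). YAP1 in NCIH1563 stood at −0.722, where the gap was 0.62 of the range of 10 lines against a limit of 0.466. The check covered the 9 genes over all lines, over LUAD lines and over LUSC lines, and chance flags about 1 in 20 such groups.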

How the results depend on the processing

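No paired analysis was possible because values per library were not used here, and for the same reason no library could be left out. When calls also had to change by 1 or more in log2 units, 13 of the 88 entries stayed called, against 39. Across lines, the count of genes called was 1 with limma, 2 after scaling each line by its SD (LATS2 added), 3 by random-effects meta-analysis (AMOTL2 and LATS2 added), 2 after the correction for length and GC content (LATS2 added), 0 with an ordinary test, and 0 without NCIH1975, NCIH522 and PC9. Leaving out each line in turn gave counts from 0 (without EBC1) to 2 (without NCIH1563, where LATS2 was added, or without NCIH522, where AMOTL2 was added). The means of YAP1 and TEAD1, not called in any of these fits, turned to −0.052 and −0.12 without those 3 lines, and leaving out single lines gave −0.027 to 0.081 for YAP1 and −0.075 to 0.18 for TEAD1. Widening the standard errors cut the genes past Cochran's Q from 7 to 3. The cause was not tested for any of these changes. The count for LUAD against LUSC was 0 under each alternative run. Taken as deposited instead of as CPM, the ratio of the highest to the lowest level among lines moved most for TEAD1 (18.1 against 28.7), followed by AMOTL2 (16.5 against 10.97), YAP1 (6.84 against 10.2) and CTGF (58.9 against 39.8).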
